A study of Drosophila melanogaster with 12 samples.

Results

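The adipokinetic hormone axis of the fruit fly was represented by 6 genes, chosen by name for their roles: the hormone gene Akh, the receptor gene AkhR, the lipid droplet genes Lsd-1 and Lsd-2, and the lipase genes bmm and Hsl. The genes were chosen with earlier results of these data known. They were 6 of 17714 genes in a table of poly(A) RNA sequenced from whole bodies of female Drosophila melanogaster. The groups were old Ptth mutants, old wild type, young Ptth mutants and young wild type, with 3 libraries each and about 15 flies pooled in a library. Ptth encodes the prothoracicotropic hormone, a brain peptide that times metamorphosis by driving ecdysteroid synthesis in the larval prothoracic gland, and the study used its mutants to ask how developmental time bears on ageing. In the labels the mutants are ptth120BC2 and the wild type is wOB, and the design text gives ages of 5 weeks for old and 1 week for young flies. The labels name no other allele and no treatment in any group.

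Flies store energy as triglyceride in lipid droplets of the fat body, the insect counterpart of liver and adipose tissue. Neuroendocrine cells of the corpora cardiaca, a gland beside the oesophagus, release adipokinetic hormone into the blood when energy is needed, much as the mammalian pancreas releases glucagon. The hormone binds AkhR, a G protein-coupled receptor of fat body cells, and raises cyclic AMP and calcium there. Droplets are coated by perilipins, which gate the access of lipases to the fat inside. Lsd-1 (Plin1) is the perilipin through which hormone signalling opens droplets to lipolysis, whereas Lsd-2 (Plin2) shields stored fat. Brummer (bmm), the counterpart of mammalian adipose triglyceride lipase, carries out basal lipolysis, and hormone-sensitive lipase (Hsl) is recruited to droplets with Lsd-1.

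Depth lay between 16448805 reads (old wild type, replicate 3) and 28206866 reads (young wild type, replicate 2). Transcripts of the male reproductive tract, which a female lacks, were present in 3 libraries labelled young female. The 26 genes of that list summed to 9045 normalised counts in young Ptth replicate 1, and to 6502 and 19829 in young wild type replicates 1 and 2, against 31.7 to 68.6 in the other 9 libraries. Tests that use young flies are therefore also given with those 3 libraries left out; only 1 wild type library then remains at that age, and it is taken to vary as the other groups do. Ptth had 43.6 to 58.6 normalised counts in old mutants and 75.3 to 76.8 in old wild type, and 18.5 to 28.3 in young mutants and 25.5 to 39.9 in young wild type. The old groups did not overlap and the young groups did. The log2 difference of Ptth was -0.54 in old flies (limma, adjusted p = 0.232), -0.52 in young flies (adjusted p = 0.133) and -0.53 as the mean of both ages (adjusted p = 0.0390; 0.118 without the 3 libraries), a direction that goes with the labels.

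The genes are spread over the genome. In the Release 6 assembly Akh (FBgn0004552) lies on 3L from 4141467 to 4142070 on the plus strand. AkhR (FBgn0025595) lies on 2L from 6711286 to 6716186 on the minus strand. Lsd-1 (FBgn0039114) lies on 3R from 23763857 to 23766662 on the plus strand, and Lsd-2 (FBgn0030608) on X from 15069127 to 15076220 on the minus strand. The lipase genes are bmm (FBgn0036449) on 3L from 14776496 to 14786412 on the minus strand, and Hsl (FBgn0034491) on 2R from 20257650 to 20261726 on the plus strand. Lsd-1 was the only member whose exons overlapped another gene's, sharing 144 bases, 7.35% of its exon length, with CG10214 on the opposite strand. CG10214 averaged 610.3 ± 10.9 normalised counts in old mutants and 594 ± 43.1 in old wild type (SD, n = 3 each).

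The droplet coat was the most abundant layer of the axis and the hormone the least. Per kilobase of exon, the median level over the 12 libraries was 3621 normalised counts for Lsd-2 and 1829 for Lsd-1. The lipases followed, with medians per kilobase of 949 for bmm and 643 for Hsl. AkhR had 288 and Akh 153 normalised counts per kilobase. The order of neighbours held in 12 of 12 libraries for Lsd-2 over Lsd-1, bmm over Hsl, and Hsl over AkhR. It held in 11 of 12 libraries for Lsd-1 over bmm, the exception being young wild type replicate 3, and for AkhR over Akh, the exception being old wild type replicate 1.

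**Figure D1:**
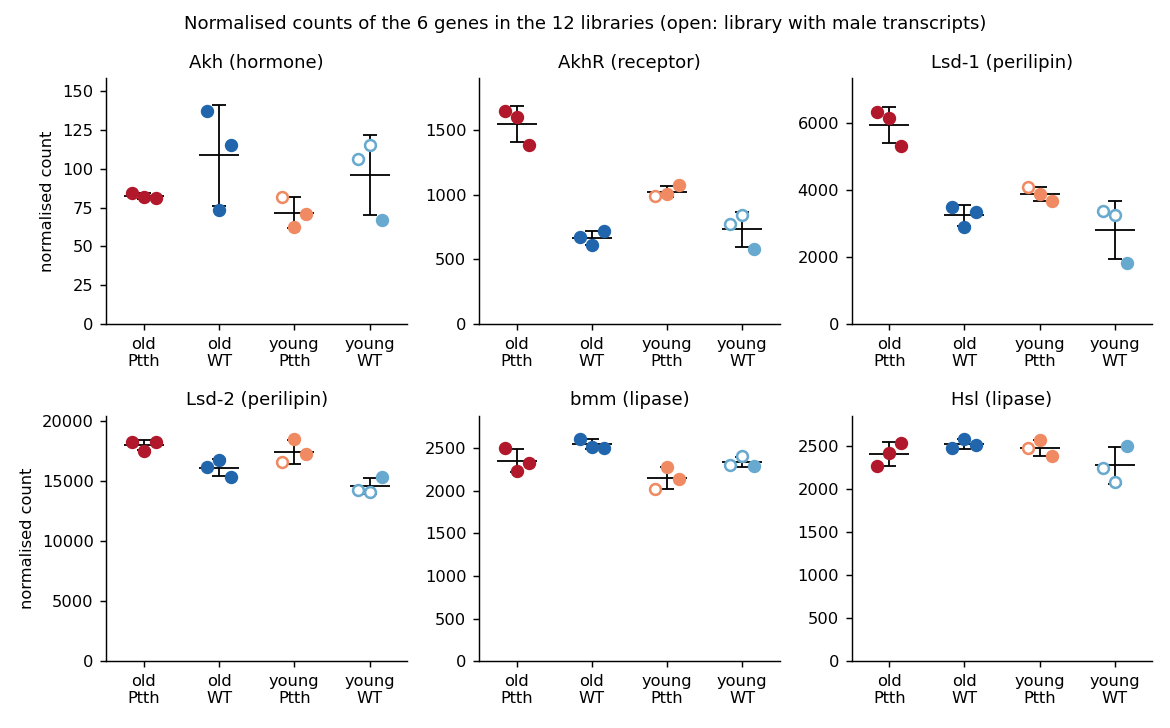
Normalised counts (vertical axes, linear, starting at 0) of the 6 genes in each library of old Ptth mutants, old wild type, young Ptth mutants and young wild type. Points are libraries, open where male transcripts were present, and bars show the mean ± SD (n = 3). AkhR and Lsd-1 stand highest in all 3 old mutant libraries, while bmm and Hsl lie within a narrow band in every group.

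The hormone transcript was lower on average in mutants at both ages, but not beyond the spread of the wild type libraries. Akh had 84.7, 81.7 and 81.6 normalised counts in old mutants, against 137, 73.5 and 115 in old wild type. It had 82.1, 62.4 and 71.1 normalised counts in young mutants, against 106, 116 and 66.8 in young wild type. The mutant libraries were close together, and at each age 1 wild type library lay among or below them, so the groups overlapped. The wild type spread was wider than counting allowed: the exact Poisson 95% interval, which covers counting error only, was 113 to 165 normalised counts for old wild type replicate 1 and 58.0 to 91.8 for replicate 2. Akh rested on 68 to 145 reads per library. The log2 difference between mutants and wild type in limma, a linear model with a moderated spread, was -0.34 ± 0.24 (SE) in old flies, with a 95% interval of -0.88 to 0.19 (p adjusted over all genes by Benjamini-Hochberg 0.580). In young flies it was -0.39 ± 0.24 (adjusted p = 0.280), and the sign turned under quantile normalisation (0.14). Without the libraries with male transcripts the young difference was -0.00328. Leaving out young wild type replicate 3 instead gave -0.63 (limma, adjusted p = 0.0411), and leaving out replicate 2 gave -0.23 (adjusted p = 0.669). The lowest adjusted p over the 18 alternatives, 0.00218, came from library weights, a fit that stopped before it converged. Between ages Akh differed by 0.21 ± 0.24 in mutants (adjusted p = 0.797) and by 0.17 ± 0.24 in wild type (adjusted p = 0.670). These differences were 0.31 (adjusted p = 0.561) and 0.65 (adjusted p = 0.374) without the libraries with male transcripts.

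The receptor transcript showed the largest difference of the axis. AkhR had 1652, 1601 and 1387 normalised counts in old mutants, against 672, 611 and 720.3 in old wild type. The lowest old mutant library stood well above the highest old wild type library, so the groups lay far apart. The means were 1547 ± 140.5 in old mutants and 668 ± 54.9 in old wild type (SD, n = 3 each), a ratio of 2.32. AkhR rose by 1.21 ± 0.13 on the log2 scale, with a 95% interval of 0.94 to 1.48 (limma, adjusted p = 1.54e-04). By p-value it ranked 47 among the 11403 genes tested. The call held under each of the 18 alternatives tried, with values from 1.15 to 1.29 and adjusted p-values from 5.18e-18 to 0.00678. In these whole bodies, more cells of a type and more RNA per cell cannot be told apart.

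At the young age AkhR was also higher in mutants, by less. Young mutants had 991, 1009 and 1074 normalised counts, against 776, 845 and 583 in young wild type. The groups did not overlap, and the lowest mutant library exceeded the highest wild type library. The fitted change was 1.41-fold (log2 0.50 ± 0.13, limma, adjusted p = 0.0332), below the 1.5-fold minimum set for a call. The highest of the young wild type values came from a library with male transcripts. Without the 3 such libraries the log2 difference was 0.84 (adjusted p = 0.0491), past both thresholds, with 583 as the lone wild type value. Over the 18 alternatives its adjusted p ran from 2.17e-04, under library weights, to 0.158. The fit of those weights stopped before it converged.

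Between ages, AkhR was higher in old than in young mutants, while the wild type groups overlapped. Old mutants averaged 1547 ± 140.5 normalised counts and young mutants 1025 ± 43.9, with no overlap between them (log2 0.59 ± 0.13, adjusted p = 0.0152; 0.57 and 0.0266 without the libraries with male transcripts), which is below the 2-fold minimum used between ages. Old wild type averaged 668 ± 54.9 and young wild type 734 ± 136 (log2 -0.12 ± 0.13, adjusted p = 0.529), and this difference was 0.19 (adjusted p = 0.508) without the libraries with male transcripts. The difference of the age changes was tested as an interaction and was not called by limma (0.71 ± 0.18, 95% interval 0.33 to 1.10, unadjusted p = 0.00175, adjusted p = 0.234). DESeq2 on recovered reads called it (0.74, adjusted p = 0.00918), edgeR did not, and without the libraries with male transcripts limma gave 0.37 (adjusted p = 1). Over 23 alternatives the lowest adjusted p, 5.01e-04, came from library weights, a fit that stopped before it converged. Without old mutant replicate 1 the adjusted p was 0.592 (limma).

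The perilipin Lsd-1 followed the receptor. It had 6341, 6164 and 5322 normalised counts in old mutants, against 3486, 2897 and 3359 in old wild type. Each old mutant library exceeded each old wild type library by a wide margin. Lsd-1 rose 1.83-fold, to 5942 ± 544 in old mutants, against 3247 ± 309.9 in old wild type (SD, n = 3 each; log2 0.87 ± 0.19, 95% interval 0.46 to 1.28, limma adjusted p = 0.0184). The call was lost when any 1 of 4 libraries was left out, with adjusted p = 0.0598 without old wild type replicate 2, 0.0608 without replicate 3, 0.0754 without old mutant replicate 1 and 0.0801 without replicate 2. Its log2 change stayed between 0.79 and 0.95 over all 18 alternatives. The overlapping gene CG10214 differed by 0.04 ± 0.09 in the same comparison (adjusted p = 0.935).

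Young flies showed the same order of Lsd-1 with more spread. Young mutants had 4079, 3887 and 3683 normalised counts, against 3361, 3249 and 1814 in young wild type. All 3 mutant libraries were higher than all 3 wild type libraries, and wild type replicate 3 was far below the other two. The difference was 0.52 ± 0.19 on the log2 scale and was not past the test (adjusted p = 0.0904). It was 0.23 (adjusted p = 0.0606) without that replicate, and 1.06 (adjusted p = 0.0255) without the libraries with male transcripts, where it alone stood for young wild type. Over the 18 alternatives the adjusted p ran from 0.0255 to 0.252. Old mutants exceeded young mutants by 0.61 ± 0.19 (adjusted p = 0.0930), again without overlap, and old wild type differed from young wild type by 0.26 ± 0.19 (adjusted p = 0.384). Without the libraries with male transcripts these differences were 0.65 (adjusted p = 0.0212) and 0.84 (adjusted p = 0.0274), both below 2-fold. The interaction of genotype and age for Lsd-1 was 0.35 ± 0.27 (adjusted p = 0.779), and its sign turned without the libraries with male transcripts (-0.19, adjusted p = 1).

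The second perilipin, Lsd-2, varied far less than Lsd-1. It had 18222, 17528 and 18276 normalised counts in old mutants, against 16169, 16757 and 15344 in old wild type. It had 16539, 18482 and 17246 in young mutants, against 14208, 14118 and 15309 in young wild type. At each age the mutant libraries lay above the wild type libraries with no overlap. The difference was 0.16 ± 0.06 in old flies (limma, adjusted p = 0.184) and 0.26 ± 0.06 in young flies (adjusted p = 0.0270), the second a mean 19.8% higher and so below the fold minimum. Without the libraries with male transcripts the young difference was 0.22 (adjusted p = 0.374). Between ages Lsd-2 differed by 0.05 ± 0.06 in mutants (adjusted p = 0.806) and 0.15 ± 0.06 in wild type (adjusted p = 0.174), and without the libraries with male transcripts by 0.01 (adjusted p = 0.941) and 0.07 (adjusted p = 0.690).

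The balance of the perilipins shifted towards Lsd-1 in old mutants. The ratio of Lsd-2 to Lsd-1 counts was 2.87, 2.84 and 3.43 in old mutants, against 4.64, 5.78 and 4.57 in old wild type. In young flies it was 4.05, 4.75 and 4.68 in mutants, against 4.23, 4.34 and 8.44 in wild type. The old groups did not overlap and the young groups did, and old mutants held the 3 lowest ratios of the 12 libraries. These ratios are read counts without correction for transcript length and are given as a description.

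The lipase genes differed little in any comparison. The bmm transcript had 2496, 2231 and 2321 normalised counts in old mutants, against 2609, 2515 and 2501 in old wild type. It had 2026, 2280.5 and 2139 in young mutants, against 2305, 2407 and 2295 in young wild type. At both ages all 3 mutant libraries were below all 3 wild type libraries, by a small margin. The log2 difference was -0.11 ± 0.06 in old flies, with a 95% interval of -0.25 to 0.02 (limma, adjusted p = 0.428). In young flies it was -0.12 ± 0.06, with an interval of -0.26 to 0.02 (adjusted p = 0.197), and -0.06 without the libraries with male transcripts (adjusted p = 0.871). Averaged over both ages it was -0.12 ± 0.04 (adjusted p = 0.0853; 0.334 without those libraries). With age, bmm differed by 0.13 ± 0.06 in mutants (adjusted p = 0.365) and by 0.12 ± 0.06 in wild type (adjusted p = 0.236), and without the libraries with male transcripts by 0.09 (adjusted p = 0.456) and 0.15 (adjusted p = 0.373).

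Hsl had the smallest genotype difference of the 6 when averaged over both ages (log2 0.03 ± 0.05, limma adjusted p = 0.704; -0.04 and 0.648 without the libraries with male transcripts). It had 2268, 2422 and 2543 normalised counts in old mutants, against 2477, 2593 and 2512 in old wild type. It had 2477, 2579 and 2386 in young mutants, against 2247, 2088 and 2509 in young wild type. The groups overlapped at both ages. The difference was -0.07 ± 0.07 in old flies, with a 95% interval of -0.23 to 0.09 (adjusted p = 0.771). In young flies it was 0.12 ± 0.07, with an interval of -0.04 to 0.28 (adjusted p = 0.250), and -0.02 without the libraries with male transcripts (adjusted p = 0.988). A change of Hsl by 1.5-fold between genotypes lay outside both intervals, and the same held for bmm. Between ages Hsl differed by -0.04 ± 0.07 in mutants (adjusted p = 0.862) and 0.15 ± 0.07 in wild type (adjusted p = 0.214), and without the libraries with male transcripts by -0.04 (adjusted p = 0.740) and 0.01 (adjusted p = 0.977).

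**Figure D2:**
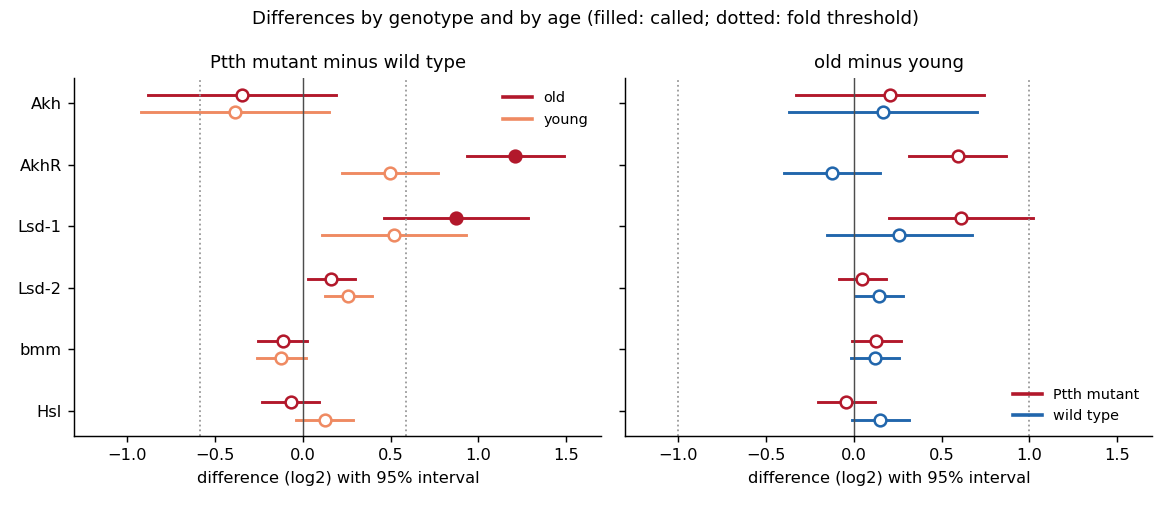
Log2 differences (horizontal axes) of the 6 genes with 95% intervals from limma, mutant minus wild type at each age (left) and old minus young in each genotype (right). Filled points passed the adjusted p and the fold minimum, drawn as dotted lines. Only AkhR (1.21) and Lsd-1 (0.87) in old flies are filled, and the intervals of Akh are the widest.

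In old flies limma called 2 of the 6 genes, both higher in mutants, against 4.17% of all 11403 genes in either direction and 1.46% higher. Groups did not overlap for 4 of the 6, against 26.4% of all genes. The median difference was 0.05 over the members and 0.00288 over all genes. In young flies 0 of 6 were called, against 4.81% of all genes, while 3 had an unadjusted p under 0.05 and 2 an adjusted p under 0.05 at any fold, against 8.83% of all genes by that measure. Here 4 of the 6 did not overlap, against 25.3% of all genes. Of the ages, 0 of 6 were called in mutants, against 1.81% of all genes, and 0 of 6 in wild type, against 3.05%, with 2 and 1 members at an unadjusted p under 0.05. Groups did not overlap for 2 of 6 between ages in mutants, against 24.7% of all genes, and for 2 of 6 in wild type, against 22.3%. No member was called for the interaction, against 0.158% of all genes, with 1 at an unadjusted p under 0.05. The share of all genes at an unadjusted p under 0.05 was not counted, here or for the lists below. In young flies that level was common: Lsd-1 (limma, unadjusted p = 0.0177) ranked only 2228 by p-value among the 11403 genes. Counts at an unadjusted p are therefore descriptions without a background. On the same recovered reads edgeR and DESeq2 each called AkhR and Lsd-1 in old flies and no member in young flies or between ages.

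Averaged over both ages, AkhR was 0.85 ± 0.09 higher in mutants on the log2 scale (limma, adjusted p = 5.93e-05) and Lsd-1 0.70 ± 0.13 higher (adjusted p = 0.00464), and both were called, against 5.45% of all genes in either direction and 1.44% higher. Lsd-2 was 0.21 ± 0.04 higher (adjusted p = 0.00747), below the 1.5-fold minimum. After the 3 young libraries with male transcripts were dropped, the averages were 1.02 for AkhR (adjusted p = 0.00163) and 0.97 for Lsd-1 (adjusted p = 0.00227), and 0.19 for Lsd-2, which then missed the adjusted p (0.0671). These averages rest on the same libraries as the values at each age.

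AkhR and Lsd-1 moved together from library to library. The Pearson correlation of their log2 counts was 0.92 over the 12 libraries, 0.92 over the 9 without male transcripts and 0.99 over the 6 old libraries, where it mostly follows the gap between genotypes. AkhR counts came to 26.0, 26.0 and 26.1% of Lsd-1 counts in old mutants, against 19.3, 21.1 and 21.4% in old wild type. So the receptor was higher in old mutants also relative to Lsd-1, with no overlap. The share was 24.3, 26.0 and 29.2% in young mutants, against 23.1, 26.0 and 32.1% in young wild type, where the groups overlapped. The other pairs of members had correlations between -0.57 and 0.65 over the 12 libraries. All libraries share the structure of genotype and age, so these correlations are descriptions.

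**Figure D3:**
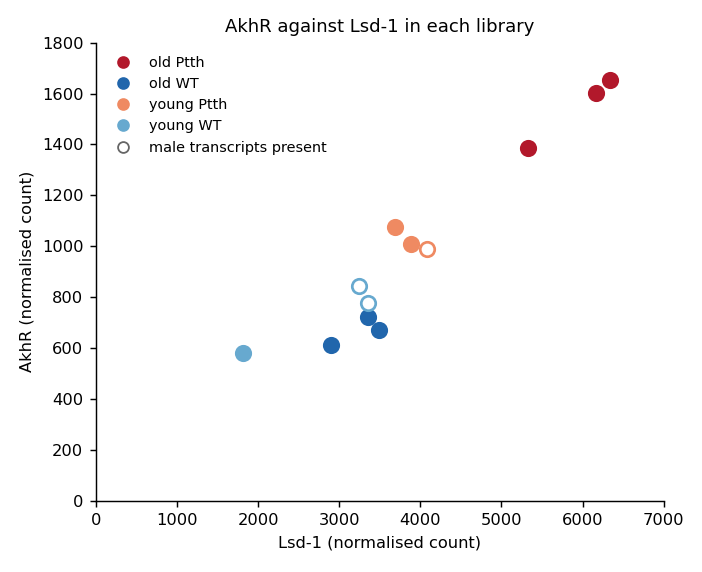
AkhR (vertical axis) against Lsd-1 (horizontal axis), both in normalised counts, with 1 point per library coloured by group and open where male transcripts were present. The 3 old mutant libraries lie apart at the upper right, from 5322 for Lsd-1 and 1387 for AkhR upwards, and young wild type replicate 3 lies at the lower left.

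Summed markers of the fat body, where AkhR and Lsd-1 act, were higher in each old mutant library than in each old wild type library. No single marker was called between genotypes in old flies with all 12 libraries. The 14 genes of that list, yolk proteins, larval serum proteins, lipogenic enzymes and the iron carrier Tsf1, summed to 698611, 612937 and 574246 normalised counts in old mutants, against 525227, 408099 and 449184 in old wild type. Of the 11 genes tested, 10 were higher in old mutants with a median log2 difference of 0.39, 7 had an unadjusted p under 0.05 and 0 were called by limma, edgeR or DESeq2. Lsp1beta had a larger difference than AkhR (1.97, adjusted p = 0.0967), Lsp2 a like one (1.21, adjusted p = 0.435), and 8 others were higher by less than AkhR (1.21) and Lsd-1 (0.87). The larval serum protein gene Lsp1gamma went the other way (-1.02, adjusted p = 0.559). Averaged over both ages 1 of the 11, Lsp1beta, was called by limma (1.93, adjusted p = 0.0122), against 5.45% of all genes. It was not called by edgeR (adjusted p = 0.0565), and DESeq2 gave it no adjusted p. Without the libraries with male transcripts Lsp1beta was 2.42 higher in mutants as the mean of both ages, with 1 young wild type library left. In young flies the sums were 495191, 460774 and 469293 in mutants, against 496510, 657546 and 414679 in wild type, with 5 of 11 higher and a median of -0.06 (8 of 11 and 0.17 without the libraries with male transcripts). Between ages, 10 of 11 fat body markers were higher in old than in young mutants with a median of 0.24, and 4 of 11 in wild type with a median of -0.18. The wild type median turned to 0.17, with 10 of 11 higher, and the mutant median was 0.35, with 10 of 11 higher, when those libraries were left out. With all 12 libraries Tsf1 was called higher with age in mutants (1.36, limma adjusted p = 0.0197) and in wild type (1.32, adjusted p = 0.0192). Lsp1gamma, at low counts, was called lower (-2.94, adjusted p = 0.0267, and -2.86, adjusted p = 0.0249). These were 2 of 11 in each genotype, against 1.81% of all genes in mutants and 3.05% in wild type. Each of these calls was lost when some single libraries were left out. The larval markers Fbp1, Fbp2 and Lsp1alpha reached at most 1.86, 7.92 and 69.8 normalised counts and did not pass the filter for testing. The part of fat body content in the differences of AkhR and Lsd-1 was not tested.

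Marker lists of other cell types had smaller medians in old flies. Of 12 germline markers of the ovary, 10 were higher in old mutants with a median of 0.10, and of 12 muscle markers 9 were higher with a median of 0.09. No germline marker was called by any of the 3 tools, with 1 at an unadjusted p under 0.05, and 1 muscle marker was called by all 3: TpnC4, a flight muscle troponin C, had 44.4 to 91.2 normalised counts in old mutants and 18.1 to 27.8 in old wild type (log2 1.55 ± 0.25, limma adjusted p = 0.00290), a larger change than that of AkhR. Of 12 neuropeptide markers, 7 were higher in old mutants with a median of 0.05. These markers do not measure the corpora cardiaca, the source of Akh. In young flies 1 of these 12 was higher, with a median of -0.26, and 7 of 12 without the libraries with male transcripts, with a median of 0.01. With age, 10 of 12 muscle markers were lower in mutants and 12 of 12 in wild type, with medians over the list of -0.92 and -1.43. Of the 12, 4 were called lower in mutants and 9 in wild type, against 1.81% and 3.05% of all genes called in either direction. Without the libraries with male transcripts 2 and 0 of the 12 were higher, with medians of -0.86 and -1.20.

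Around the members, few genes of the pathway were called. Of 13 genes tested for hormone processing and release (convertases, the amidating enzyme Phm, and receptors and channels of the corpora cardiaca), 0 were called by any of the 3 tools in old flies and 2 had an unadjusted p under 0.05. The median was -0.11, with 4 of 13 higher in mutants. In young flies 1 was called, and it was lower in mutants. This gene, Lst, encodes Limostatin, a peptide of endocrine corpora cardiaca cells that restrains insulin release. Lst had 785, 739.6 and 1027 normalised counts in young mutants, against 1783, 1704 and 1058 in young wild type (log2 -0.81 ± 0.21, adjusted p = 0.0355), with no overlap but little gap between the nearest libraries. Without the libraries with male transcripts, which held the 2 highest values, the difference was -0.28 (adjusted p = 0.815). The call was lost under 9 alternatives, among them leaving out any young library but wild type replicate 3, with adjusted p-values from 0.0506 to 0.815. Phm, named after its values were seen, was -0.39 in old and -0.38 in young flies (adjusted p = 0.0316 and 0.0332), below the fold minimum at both ages (-0.27 and 0.526 in young flies without those libraries).

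Downstream of the receptor, 0 of 17 signalling genes tested (G proteins, phospholipase C, protein kinase A, store-operated calcium entry, Sik3, foxo) were called between genotypes in old or in young flies, and 1 had an unadjusted p under 0.05 at each age. Their medians were -0.03 in old and -0.07 in young flies, with 4 and 5 of 17 higher in mutants. The absence of a call covers transcript levels only. With age SERCA, the calcium pump of the endoplasmic reticulum and an abundant muscle gene, fell in both genotypes. It averaged 12522 ± 212 normalised counts in old and 30770.3 ± 2773 in young mutants (log2 -1.29 ± 0.08, adjusted p = 4.74e-06). In wild type it averaged 12723 ± 566 in old and 33467 ± 3566 in young flies (log2 -1.39 ± 0.08, adjusted p = 1.92e-06). These values were -1.24 (adjusted p = 0.00179) and -1.26 (adjusted p = 0.00363) without the libraries with male transcripts. The part of muscle content, where markers were also lower in old flies, was not tested.

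Among 10 further lipid droplet and lipase genes, 1 was called in old flies and it rose. The gene mag encodes Magro, a secreted lipase of the anterior gut that digests dietary fat and sterol esters, and so acts outside the fat body. It had 1717, 1357 and 1573 normalised counts in old mutants, against 804, 739 and 752 in old wild type (log2 1.01 ± 0.14, adjusted p = 0.00128), with no overlap. In young flies it had 1624, 1382 and 1619 in mutants, against 1228, 1198 and 822 in wild type (log2 0.53 ± 0.14, adjusted p = 0.0419), again without overlap but below the fold minimum, and 0.86 (adjusted p = 0.0657) without the libraries with male transcripts. The list's median was 0.02 in old and 0.10 in young flies, with 6 and 7 of 10 higher in mutants. Jabba, a histone anchor on droplets that was named after its values were seen, was 0.40 higher in young mutants (adjusted p = 0.0355), also below the fold minimum, and 0.25 higher (adjusted p = 0.441) without those libraries. With age in wild type the lipase gene Lip3 rose, at low counts: 21.5, 16.2 and 15.9 in old against 3.66, 3.19 and 2.95 in young wild type (log2 2.14 ± 0.51, adjusted p = 0.0234; 2.24 and 0.0254 without the libraries with male transcripts). That call was lost when old wild type replicate 1, 2 or 3 was left out (adjusted p = 0.124, 0.0780 and 0.0738), without young wild type replicate 1 (0.0568), and when the groups compared were fitted alone (0.130). In mutants Lip3 was also higher with age, at 8.38, 5.98 and 11.3 in old against 5.86, 2.64 and 2.03 in young flies. It was not called there with all 12 libraries, and the log2 difference was 1.49 without the libraries with male transcripts.

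No gene that burns the released fat was called between genotypes. Of 19 genes of fatty acid oxidation, 17 were higher in old mutants with a median of 0.16, against 0.00288 for all genes, and 9 had an unadjusted p under 0.05, but 0 were called by any of the 3 tools. Named after their values were seen, colt, the mitochondrial carnitine carrier, was 0.34 higher (adjusted p = 0.0396), and whd, the carnitine palmitoyltransferase that admits fatty acids to mitochondria, was 0.26 higher (adjusted p = 0.0360). Both were among 4 of the 19 genes at an adjusted p under 0.05 in old flies, all below the fold minimum. Averaged over both ages, 8 of the 19 had an adjusted p under 0.05 (limma) and 0 were called. The share of all genes at that level was not counted for these comparisons. In young flies 17 of 19 were higher with a median of 0.09, against -0.02 for all genes, and 0 were called, with 3 at an unadjusted p under 0.05 (18 of 19 and a median of 0.13 without the libraries with male transcripts). Of 10 lipid transport genes, including the lipophorin gene apolpp, 0 were called at either age, with medians of 0.04 in old and -0.12 in young flies and 2 and 1 genes at an unadjusted p under 0.05.

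Carbohydrate stores, the other fuel that the hormone mobilises, showed a like pattern in old flies. Of 9 genes of glycogen and trehalose metabolism, 8 were higher in old mutants with a median of 0.19, 5 had an unadjusted p under 0.05 and 0 were called. In young flies 3 of 9 were higher with a median of -0.13, 1 had an unadjusted p under 0.05 and 0 were called. That gene was Treh, the trehalase, named after its values were seen, with 6384, 6301 and 6371 normalised counts in young mutants, against 8968, 9333 and 8004 in young wild type (log2 -0.46, adjusted p = 0.00436), below the fold minimum. Without the libraries with male transcripts Treh was at -0.34 (adjusted p = 0.336), and 7 of 9 were higher in young mutants, with a median of 0.05.

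**Figure D4:**
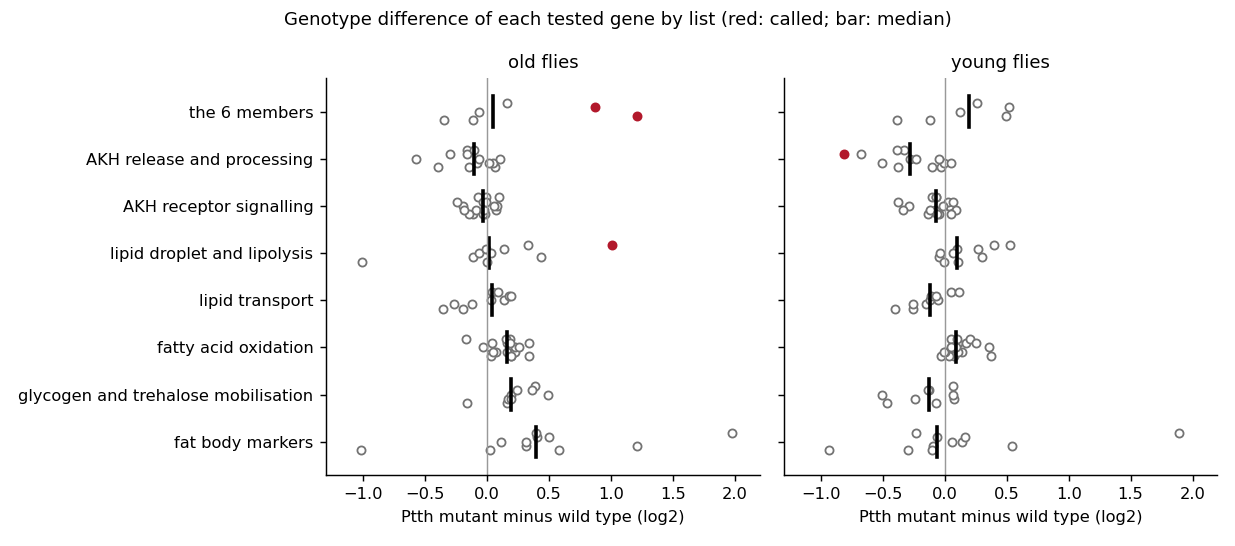
Log2 difference between mutants and wild type (horizontal axes) of every tested gene of the members, of 6 pathway lists and of the fat body markers in old flies (left) and young flies (right), with each list's median as a black bar and called genes in red; marker lists of other cell types are not drawn. In old flies the red points are AkhR (1.21), Lsd-1 (0.87) and mag (1.01), and the medians of fat body markers (0.39) and glycogen and trehalose genes (0.19) lie farthest from 0. In young flies the only red point drawn is Lst (-0.81).

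The genes whose log2 counts were most like those of each member over the 12 libraries, among genes averaging at least 50 normalised counts, are given as a description. For AkhR they were Srr (Pearson r 0.96), lectin-28C (0.96) and CG33296 (0.96). For Lsd-1 they were CG13912 (0.97), LManII, a lysosomal alpha-mannosidase (0.96), and Ppt2 (0.96). Over the 9 libraries without male transcripts these 6 correlations lay between 0.963 and 0.985. Those 9 are part of the 12 used to choose the genes. No gene was shared between the lists of AkhR and Lsd-1. For Akh the closest were CG18507 (0.96), Arpc4 (0.95) and CG9673 (0.95), and for Lsd-2 Nipped-A (0.95), PPP4R2r (0.95) and CG42360 (0.95). For Hsl they were CG10681 (0.95), Ocrl (0.95) and CG17658 (0.94). The closest to bmm were less close, with GstD2 at 0.91, CG5446 at 0.90 and Pvf1 at 0.90. Over the same 9 libraries the correlations were 0.94 to 0.96 for Akh and 0.92 to 0.95 for Lsd-2. They were lower for Hsl (0.83 to 0.92) and bmm (0.84 to 0.89). With 12 libraries and 11403 genes, high correlations arise for many genes, and the libraries share depth and groups.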

How the data were processed

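The authors sequenced poly(A) RNA, mapped the reads to BDGP6 (STAR 2.7.3a), counted them by gene (HTSeq 0.11.2) and scaled each library by a size factor (DESeq2 1.20.0). The deposited values are thus a normalised count signal, given by gene symbol. In each library all values were whole multiples of 1 step (within 0.01), which returned whole reads. The strand setting was not given in the sources used here. All samples carry the text of both library preparations, so this possible batch was not tested. The paper names the strains and ages otherwise than the labels, and the groups follow the labels.

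Genes with at least 10 normalised counts in at least 3 of 12 libraries were tested: 11403 of 17714, all 6 members included. Log2 values with a pseudocount of 1, which understates changes of low genes, entered limma 3.58.1 (R 4.3.3; 1 model of 4 groups, trend, two-sided, Benjamini-Hochberg). Calls required an adjusted p below 0.05 together with a fold above 1.5 (genotypes) or 2 (ages), and the adjusted p only for the interaction. The design text calls libraries biological replicates without naming separate cultures, so each p reflects only how these libraries varied, which may be technical.

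Named genes are the 6 members, up to 4 called genes per pathway list and comparison, and the 3 genes most correlated with each member; marker lists of other cell types are given by counts, medians or sums. Members and lists were chosen with earlier results of these data known. Positions and exon lengths come from a later annotation of Release 6. Promoter motifs, planned as a description, were not searched because no sequence was used here. Alternatives were other filters, pseudocounts (0.5, 5) and scalings, only the groups compared, library weights, a replicate block, edgeR 4.0.16 and DESeq2 1.42.0 on recovered reads, each library left out, and, chosen after seeing the data, the 3 libraries with male transcripts left out. The main limma fit of each comparison was also tested on simulated data, and the alternatives were not.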

Additional observations from a re-analysis of the deposited data

Results flagged for a closer look

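Among all genes named by rule, members included, 1 had age changes that differed between the genotypes past the interaction test: Act88F, a flight muscle actin of the muscle marker list, averaged 1936 ± 735 normalised counts in old mutants and 1134 ± 192 in old wild type, and 1393 ± 219 in young mutants and 8888 ± 3440 in young wild type (SD, n = 3 each), an interaction of 3.32 on the log2 scale (limma, adjusted p = 0.0147) that became 2.69 (adjusted p = 0.181) without the 3 libraries with male transcripts.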

How the results depend on the processing

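In old flies 2 members were called under each alternative, except that leaving out single libraries gave 1 to 2, with Lsd-1 the gene lost. In young flies, where 0 were called, library weights gave 1 (Akh), leaving out single libraries 0 to 1 (AkhR at 0.61, adjusted p = 0.0192, without wild type replicate 2; Akh without replicate 3), and leaving out the libraries with male transcripts 2 (AkhR and Lsd-1). For the interaction, with 0 called, library weights gave 3 (AkhR, Hsl and Lsd-1), DESeq2 1 (AkhR), and leaving out single libraries 0 to 2 (AkhR at 0.87, adjusted p = 0.00918, and Lsd-1 without young wild type replicate 3). For the mean of both ages, with 2 called, library weights gave 1 and leaving out single libraries 1 to 2, with Lsd-1 the gene lost. No member was called between ages under any alternative. The cause was not tested. The fit of the library weights stopped before it converged.

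Over all genes the counts called moved by over 1.5 times as follows. In young flies (549) they were 234 with only the groups compared, 2635 with library weights, 115 without the libraries with male transcripts and 297 to 2265 without single libraries. In old flies (475) they were 834 with weights and as few as 297 without wild type replicate 3. Between ages they were 137 in mutants (206) under quantile normalisation, and in wild type (348) 1617 with weights, 885 with DESeq2 and 1515 without young replicate 3. For the interaction (18) they were 40 with no filter, 3041 with weights, 6 with edgeR, 123 with DESeq2, 6 without the libraries with male transcripts and 4 to 201 without single libraries. For the mean of both ages (622) they were 1979 with weights and 1094 without young wild type replicate 3. Scalings moved the median of all genes by at most 0.09. One call changed sign: Ilp3, a neuropeptide marker, was -1.66 with age in wild type and 0.11 under quantile normalisation.

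For same-numbered libraries of the 2 genotypes, correlations of their deviations were 0.82, -0.87 and 0.88 in young flies and 0.10, -0.02 and -0.06 in old flies. In old flies the numbers thus showed no pairing. In young flies the values were large but mixed in sign. Both young groups hold libraries with male transcripts, so these values cannot settle whether the numbers pair young libraries. With the replicate number as a block, the members called stayed at 2 in old and 0 in young flies, with adjusted p = 5.92e-04 for AkhR and 0.0126 for Lsd-1 in old flies. Depth limits Akh most, with 68 reads in its lowest library.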
